A study of Fukomys damarensis with 16 samples.

Results

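The kidney-enriched genes of the Damaraland mole-rat, Fukomys damarensis, were taken as the genes transcribed far more in kidney than in liver, brain, ovary or testis. They were chosen by the measured values themselves. A gene had to reach 5 RPKM in each of the 4 kidney libraries, and its kidney mean had to be at least 8 times the mean of each other tissue. RPKM is the number of reads per kilobase of gene model and per 1e6 reads, and so a level that is comparable between genes of different length. Genes at least 2-fold higher in the breeding female liver than in each of the other 3 livers, and 2-fold higher in the breeding female ovary than in the other ovary (both on RPKM + 1), were left out. The ratio and the minimum were met by 225 genes, 2 were left out in this way, and 223 of the 21082 genes in the table (1.06%) remained. In all, 9476 genes reached 5 RPKM in every kidney. The 223 are described below against these, unless another set is named.

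The kidney filters the blood in its glomeruli and recovers water, salts, sugars, amino acids and small proteins along the tubules of the nephron. Genes transcribed mainly in kidney often encode the channels, transporters and pumps of the tubule, the receptors that take up filtered protein, and enzymes of the proximal tubule that process metabolites and foreign compounds. In rodents part of the transport machinery of the proximal tubule is known to differ between the sexes. The deposited identifiers carry no gene names, and none of them (0 of 21082) was found in the RefSeq table of this species, so the function of single members is not described. For the same reason the kidney label was not checked against marker genes of nephron segments, and each comparison names at most 2 identifiers that rose and 2 that fell.

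Messenger RNA, selected by its poly(A) tail, was sequenced in pairs of reads (Illumina) in 16 libraries of this subterranean rodent, in whose colonies most adults help and do not breed. Kidney, liver and brain have 4 libraries each, 1 for breeders and 1 for non-breeders of either sex. Ovary and testis have 2 each, 1 per breeding status. The non-breeding males are labelled 5 years old and the non-breeding females 3 years old, and the labels name no strain or treatment. The brain of the non-breeding male is labelled as brain and the remaining brains as frontal brain. Breeders carry no age, so age and breeding status cannot be told apart, nor can age and sex among the non-breeders. Each of the 16 groups is 1 library, and the labels do not say which libraries share an animal or whether animals were pooled. In the kidney fit, status and sex leave 1 residual degree of freedom per gene. The error of a difference is that residual moderated by the spread of all genes tested, and not the plain spread between the 4 kidneys. A p-value therefore covers only spread between these libraries.

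The 4 kidney libraries held 15634095 to 19534775 reads on genes, and the 16 libraries 15393003 to 27593857. Across the 13618 genes tested in kidney, log2(RPKM + 1) correlated between pairs of kidneys at Pearson's r of 0.930 to 0.973, and across the 223 members at 0.929 to 0.949 (across genes, which are not independent replicates). The sum of RPKM of a library depends on how the authors counted. Reads on genes came to 1.55 to 1.97 times the divisor behind the RPKM in liver and to 0.665 to 0.945 times it in the other tissues. The members' levels in liver are on that larger scale. With all libraries scaled to the same sum the rule again gave 223 genes, 207 of them the same. With libraries scaled to their reads on genes it gave 236, of which 213 were among the 223.

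In kidney the 223 genes covered almost 4 orders of magnitude. Their kidney means ran from 6.33 to 30589 RPKM, with a median of 84.0 and quartiles of 30.2 and 206. Under 20 RPKM lay 29 genes, between 20 and 100 lay 93, between 100 and 1000 lay 90, and 11 reached 1000 or more. The genes at 5 RPKM or more in every kidney had a median kidney mean of 25.1. The enriched genes were thus mostly of middle to high abundance, which the minimum and the ratio favour by construction. Even the least covered member value in kidney rested on 28 reads, and the median over members of the lowest kidney value was 1475 reads.

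These values chose the members and are given as a description. The ratio of the kidney mean to that of the next-highest tissue had a median of 23.9 and reached 1412. It lay between 8 and 16 for 80 genes, between 16 and 64 for 78, between 64 and 256 for 37, and at 256 or above for 28. Close to the threshold, 12 members had a ratio between 8 and 9, the nearest at 8.0, and 17 genes that met the minimum fell between 7 and 8, the nearest at 7.97. Close to the minimum, 7 members had a lowest kidney between 5 and 6 RPKM, the lowest at 5.19. Another 6 genes that met the ratio had a lowest kidney between 4 and 5, the highest at 4.67. The ratio was met with a kidney under 5 RPKM by 149 genes in all. Level and ratio went together only loosely across the 223 genes (Spearman's rho 0.25; both use the kidney mean).

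**Figure D1:**
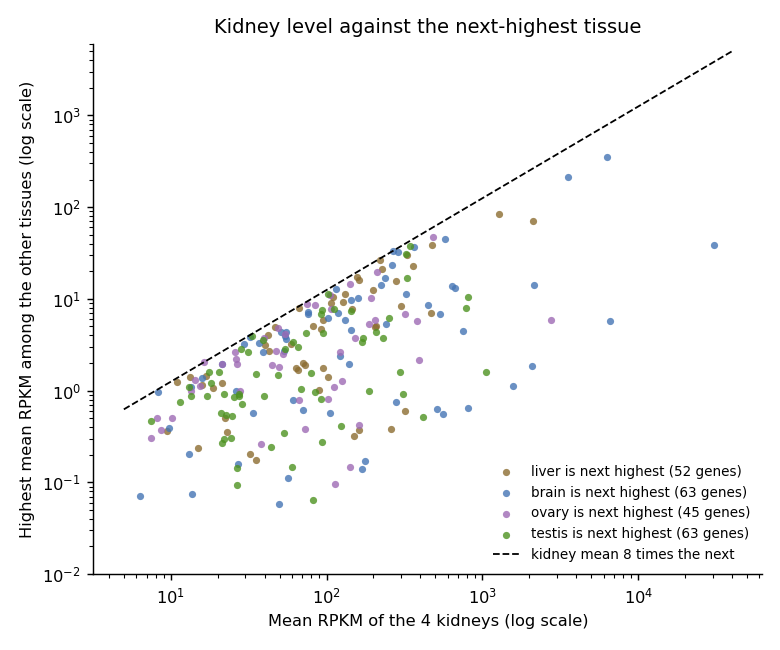
Each point is 1 of the 223 kidney-enriched genes, with the mean RPKM of the 4 kidneys on the horizontal axis and the highest mean among liver, brain, ovary and testis on the vertical axis (both log scales), coloured by the tissue that is next highest. The dashed line marks a kidney mean 8 times the next tissue, and the points spread below it to ratios of 1412 with all 4 next-highest tissues mixed.

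The most abundant member, DMR_20267, was the largest single part of this expression. It stood at 19602 RPKM in the breeding male kidney, 27174 in the breeding female, 30615 in the non-breeding male and 44968 in the non-breeding female kidney. In the livers it stood at 6.63 to 19.5 RPKM, in the brains at 28.6 to 50.6, in the ovaries at 29.8 (breeding) and 27.3, and in the testes at 8.08 (breeding) and 3.17. It was thus read in every library, with the lowest kidney far above the highest other library, and brain came next at a ratio of 786. Its coding length was 639 bases. Both non-breeding kidneys lay above both breeding ones, by a fitted log2 difference of -0.68 for breeding minus non-breeding (SE 0.64, limma adjusted p = 0.758), which did not pass the threshold of 0.05.

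DMR_07783, the member with the second highest kidney mean, showed the opposite order of status. It stood at 7448 RPKM in the breeding male kidney, 8951 in the breeding female, 4990 in the non-breeding male and 4817 in the non-breeding female kidney. No other library was above 8.37 RPKM, a brain value, and in the ovaries it stood at 0.33 in both (17 reads in the breeding library, 13 in the other). The breeding kidneys lay above the non-breeding ones without overlap, but the log2 difference of 0.74 (SE 0.45, limma adjusted p = 0.644) did not pass the threshold either.

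None of the 11 members at 1000 RPKM or more differed between kidneys by more than 2.45-fold. From the lowest to the highest kidney they differed by at least 1.53-fold. The breeding female kidney was the highest for 5 of them, the non-breeding female for 3, the breeding male for 2 and the non-breeding male for 1. Their coding lengths ran from 573 to 2421 bases and their ratios to the next tissue from 15.2 to 1412.

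A few abundant genes also set the share of the kidney's RNA that the members held. The 223 genes made up 11.6% of all RPKM in the breeding male kidney, 13.5% in the breeding female, 12.9% in the non-breeding male and 16% in the non-breeding female kidney. Of the reads on genes they took 10.5%, 11.9%, 11.1% and 12.4% in the same order. The 10 most abundant members held 66.3% of the members' kidney RPKM, and without them the shares were 4.23%, 4.90%, 4.31% and 4.75%. DMR_20267 alone held 3.07%, 3.99%, 4.63% and 6.92%, so the highest share of the members, in the non-breeding female kidney, went with the highest level of this gene. Outside kidney the 223 genes held between 0.0537% (non-breeding male liver) and 0.248% (breeding male brain) of the RPKM.

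**Figure D2:**
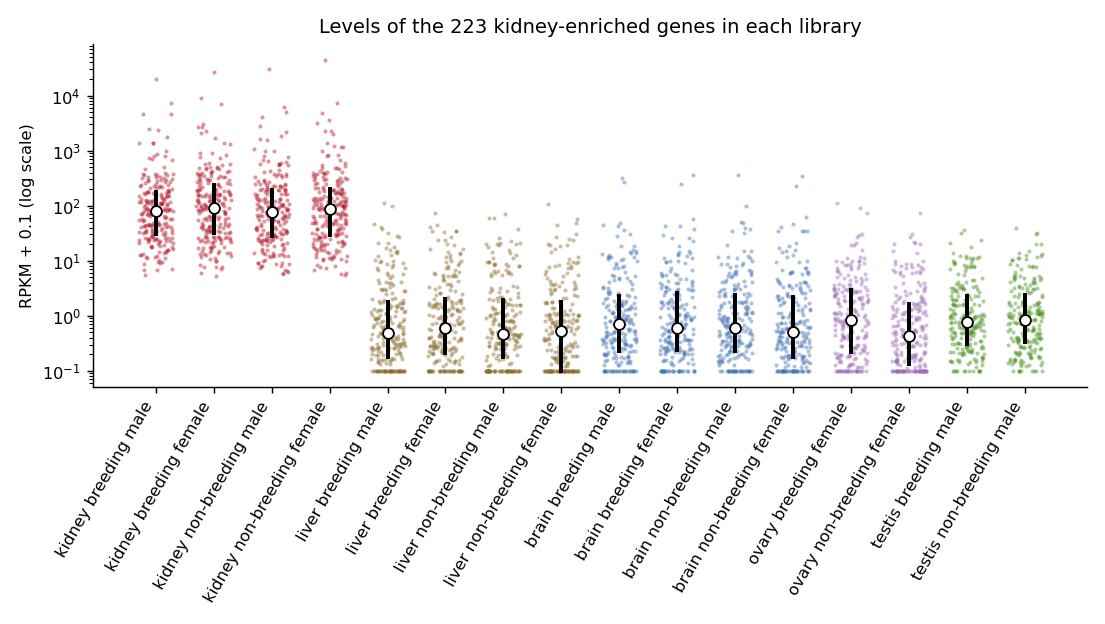
Each small point is the RPKM + 0.1 (log scale) of 1 of the 223 kidney-enriched genes in 1 of the 16 libraries, coloured by tissue, with the median as an open circle and the quartiles as a bar. Medians of the 4 kidneys lie between 76.6 and 89.6 RPKM and those of the 12 other libraries under 1 RPKM, with the non-breeding ovary lowest.

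Elsewhere most members were rare but few were fully silent. In all 12 other libraries 52 of the 223 stayed under 1 RPKM, and all 223 had a read in at least 1 of them. Under 1 RPKM in all libraries of a tissue were 120 members in liver, 123 in brain, 119 in ovary and 120 in testis. No read in any library of the tissue was found for 15 members in liver, 13 in brain, 18 in ovary and 4 in testis. Liver and brain have more libraries than ovary and testis, and the RPKM scale of liver is larger. These counts are therefore not compared between tissues. A count of 0 allows up to 3 reads per library, and this covers counting error only. At the upper end, a tissue mean of 10 RPKM or more was reached by 20 members in liver, 18 in brain, 12 in ovary and 16 in testis.

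The next-highest tissue was brain for 63 members, testis for 63, liver for 52 and ovary for 45. The median ratio of kidney to the next tissue was 37.0 where testis was next, 26.5 for brain, 20.8 for ovary and 17.8 for liver. The lower ratio for liver goes with the larger RPKM scale of the liver libraries, whose part in it was not tested. The member with the highest level outside kidney had a mean of 348.9 RPKM in brain, with 324 to 364 in the 4 brain libraries, and 6282 in kidney. The same gene was also the highest member in ovary, at 110.9 RPKM in the breeding library and 73.3 in the other. In liver the highest member had a mean of 84.8 RPKM (60.8 to 106.9) against 1286 in kidney, and in testis the highest had 38.1 against 341.3. Members abundant in kidney tended to be higher in the other tissues too. Across the 223 genes the kidney mean correlated with the mean in brain at a Spearman's rho of 0.48, in liver at 0.45, in ovary at 0.36 and in testis at 0.34, a description across genes that share the libraries and the rule.

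By coding length, recovered from the values in steps of 3 bases, the members were somewhat shorter than other kidney genes. Their median was 1230 bases with quartiles of 778.5 and 1807.5. It was 1362 bases (819 and 2277) over the 9476 genes at 5 RPKM or more in every kidney.

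The members varied more between the 4 kidneys than other kidney genes did. The median over the 223 of the SD of log2(RPKM + 1) between kidneys was 0.40, against 0.27 over the 9476 genes. The median fold between the highest and the lowest kidney was 1.87 against 1.56, and 88 of 223 members (39.5%) differed 2-fold or more, where 16.7% of the 9476 genes did. Among genes with a kidney mean of 20 RPKM or more the median SD was 0.40 for 194 members and 0.29 for 5653 genes. In bulk libraries such as these, fewer cells of a type and less RNA per cell cannot be told apart.

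At one end stood a member at 25 to 28.6 RPKM in the 4 kidneys, a range of 1.15-fold. At the other end 7 members spanned 5-fold or more, up to 13.4-fold, where 82 of the 9476 genes (0.865%) did so. These 7 did not share a single highest or a single lowest kidney. Their highest value was in the breeding female kidney for 3, the non-breeding male for 2, and the breeding male and the non-breeding female for 1 each. Their lowest was in the non-breeding female for 3, the non-breeding male for 2, and each breeding kidney for 1. Over all 223 members the breeding female kidney was the highest for 87 (39%, against a background of 38.1%), the non-breeding female for 58 (26%, background 21.6%), the non-breeding male for 46 (20.6%, background 22.5%) and the breeding male for 32 (14.3%, background 17.8%).

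Breeding status was tested within kidney, with sex in the model, by limma across all 13618 genes at 1 RPKM or more in at least 2 kidneys. None of the 223 members passed an adjusted p of 0.05 (0 of 223), and none of the 13618 genes did (0%). At an unadjusted p under 0.05 stood 41 members (18.4%), 29 higher and 12 lower in breeding kidneys. Of all genes tested, which include genes below the members' minimum of 5 RPKM, 8.97% stood there. With status alone in the model 23 members did, and with 1 kidney left out as well 13 (without the non-breeding male) to 37 (without the breeding male). Scaling the kidneys to the same sum and voom on the recovered reads each called 1 member, the same gene, described next. Each gene had 1 residual degree of freedom, moderated over all genes.

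DMR_11412 had the largest rise with breeding. It stood at 681 RPKM in the breeding male and 921 in the breeding female kidney, against 105 in the non-breeding male and 77.5 in the non-breeding female kidney. In the 12 other libraries it stood between 6.44 and 9.87 RPKM as deposited. The RPKM sum of these libraries ran from 430941 (breeding male testis) to 1536307 (breeding male liver). The gene's levels are therefore not on 1 scale across tissues and are not compared between them. Both breeding kidneys were several-fold above both non-breeding ones. The log2 difference was 3.12 (SE 0.299, limma adjusted p = 0.124). Over 12 alternative fits the adjusted p ran from 0.000431 to 0.411. It passed in 3 of them, namely voom (0.000431), kidneys scaled to the same sum (0.0289) and the fit without the non-breeding male kidney (0.018).

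DMR_16432, of only 285 coding bases, stood at 294 and 350 RPKM in the breeding male and female kidneys and at 134 and 112 in the non-breeding male and female kidneys. Its breeding kidneys did not overlap the non-breeding ones, and the fitted difference was 1.38 in log2 units (SE 0.261, limma adjusted p = 0.293, 0.0773 to 1 over the alternatives). In brain it stood at 18.3 and 18.8 RPKM in the breeding male and female libraries and at 9.72 and 9.86 in the non-breeding ones, the same order as in kidney. The male brain pair sets frontal brain (breeding) against brain, and the labels do not say whether brain and kidney libraries share animals. In ovary the gene stood at 9.61 (breeding) and 5.63, and in testis at 9.31 (breeding) and 12.6, the reverse order. In liver it was read in the breeding female library alone, with 1 read.

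On the lower side, DMR_07423 stood at 371 and 399 RPKM in the breeding male and female kidneys and at 789 and 980 in the non-breeding ones. The groups did not overlap, and the log2 difference was -1.19 (SE 0.282, limma adjusted p = 0.351, 0.0768 to 1 over the alternatives). DMR_16863 had 15.8 RPKM in the breeding male and 40.9 in the breeding female kidney, below the 56.1 and 48.9 of the non-breeding male and female kidneys. The female pair was close (log2 difference -0.25) and the male pair was not (-1.76). The fitted difference was -1.01 (SE 0.361, limma adjusted p = 0.508, 0.255 to 1 over the alternatives). Neither gene passed the threshold under any of the 12 alternatives.

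**Figure D3:**
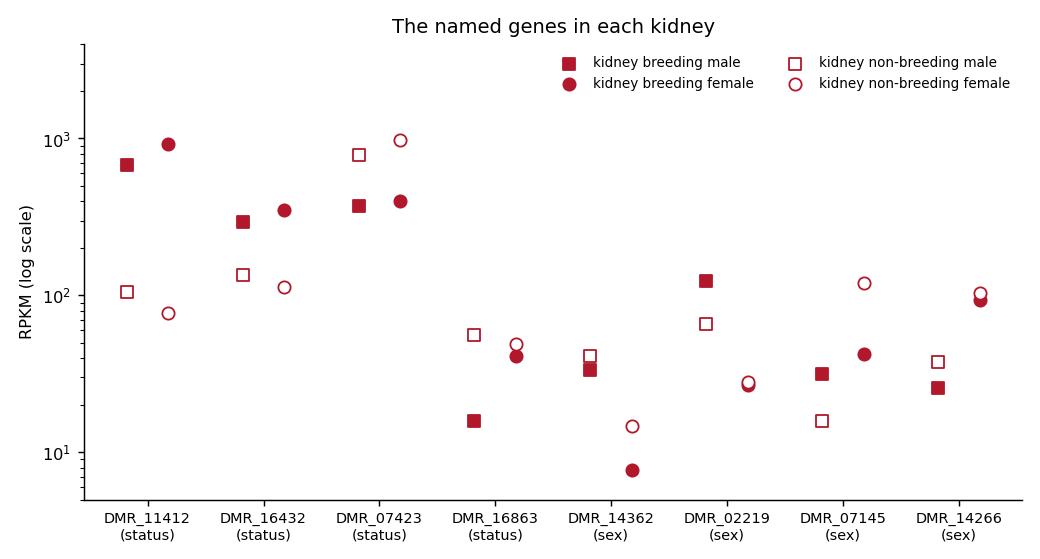
RPKM (log scale) of 8 kidney-enriched genes in the 4 kidneys, with squares for males, circles for females, filled marks for breeding and open marks for non-breeding animals, and the comparison that named each gene in brackets. DMR_11412 shows the widest gap by status, with both breeding kidneys at 681 RPKM or more and both non-breeding kidneys at 105 or less.

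When any gap counted, the status groups were separated in 65 of the 223 members (29.1%), against 34.1% of the 9476 genes. Both breeding kidneys lay above both non-breeding ones in 44 members (19.7%, background 19.8%) and below them in 21 (9.42%, background 14.3%). With a gap of at least 1.5-fold between the nearest kidneys of the groups, 8 members were above (3.59%, background 0.855%) and 2 below (0.897%, background 0.317%). The ratios of the group means of those 8 ran from 1.71 to 8.80, and their kidney means from 15.9 to 446 RPKM. The median log2 difference over the 223 members was 0.00, against 0.04 over the 9476 genes. By sex, breeding minus non-breeding had a median of -0.01 in the male and 0.12 in the female pair, against 0.00 and 0.06 over the 9476 genes. Without the breeding male kidney the median difference over members was 0.21.

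**Figure D4:**
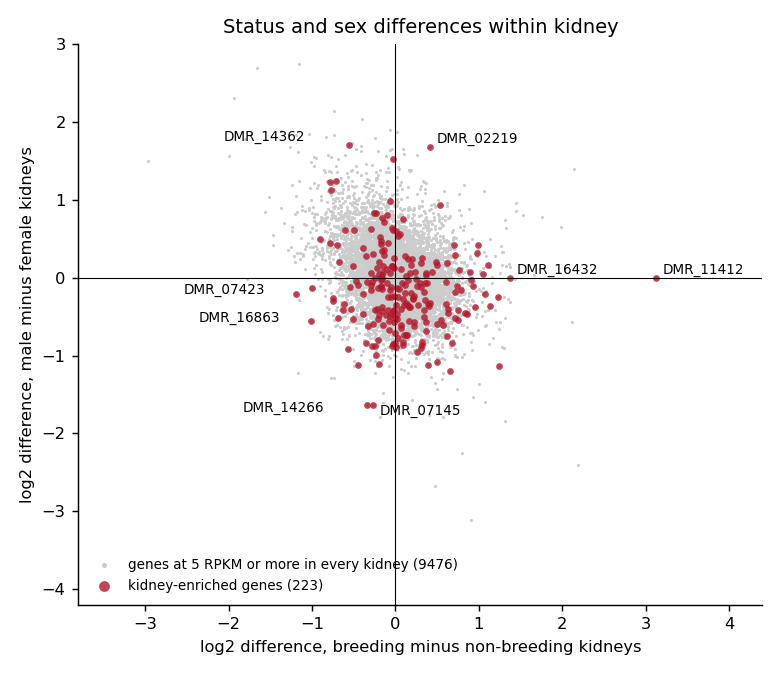
Fitted log2 differences in kidney, breeding minus non-breeding on the horizontal and male minus female on the vertical axis, for the 223 kidney-enriched genes (red) and the 9476 genes at 5 RPKM or more in every kidney (grey). The red points spread to both sides by status, around a median of 0.00, and lie more often below than above the line of no sex difference, with DMR_11412 far to the right at 3.12.

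The sexes differed more than the status groups in the number of members on one side. The fitted male minus female difference, from the same limma fit, was below 0 in 146 of 223 members (65.5%, background 51.7%). Its median was -0.16 (log2), against -0.02 over the 9476 genes. The shift was present in the breeding pair (median -0.25, against -0.07) and in the non-breeding pair (-0.16, against 0.03), and each of these pairs is 1 male and 1 female kidney. By level the members' counts were unequal, which was not tested. The share over all genes at each level was not taken, so the inequality cannot be assigned to the members. Of the 90 between 100 and 1000 RPKM, 69 were lower in males (median -0.28), and of the 11 at 1000 or more 8 were (median -0.40), against 52 of the 93 between 20 and 100 RPKM (median -0.07) and 17 of the 29 below (median -0.20).

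For single genes the differences between the sexes did not pass. None of the 223 members reached an adjusted p of 0.05 in limma (0 of 223), where 17 of the 13618 genes did (0.125%). Over all genes tested, this count was 7 with sex alone in the model and 0 to 6 with 1 kidney left out as well. Only 2 of those 17 were at 5 RPKM or more in every kidney and could have met the kidney minimum. Of the 13618 genes tested, which include genes below the members' minimum of 5 RPKM, 13.6% stood at an unadjusted p under 0.05. Of the members 50 did (22.4%), 15 higher and 35 lower in males. With sex alone in the model 46 did, and with 1 kidney left out as well 14 (without the non-breeding male), 27 (without the breeding male), 56 (without the breeding female) and 65 (without the non-breeding female). Scaled to the same sum the kidneys gave 2 members called, and voom on the recovered reads 5. Among the non-breeders the male is labelled 5 and the female 3 years old, so sex and age cannot be told apart there.

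Both male kidneys lay below both female ones in 72 members (32.3%, background 23.7%) and above them in 33 (14.8%, background 21.9%). With a gap of at least 1.5-fold, 14 members were lower in males (6.28%, background 1.14%) and 4 higher (1.79%, background 1.89%). In those 14 the female mean was 1.77 to 3.11 times the male mean, at kidney means from 22.1 to 537.8 RPKM. In those 4 the male mean was 2.01 to 3.43 times the female mean.

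The members with the largest rise in males were of moderate abundance. DMR_14362 stood at 33.5 and 40.9 RPKM in the breeding and non-breeding male kidneys and at 7.73 and 14.6 in the female ones, and at no more than 0.47 in any other library. The males lay above the females in both status classes, and the fitted difference was 1.70 in log2 units (SE 0.25, limma adjusted p = 0.0828). DMR_02219 stood at 123 RPKM in the breeding male and 65.5 in the non-breeding male kidney, and its female kidneys had 26.8 (breeding) and 28.2, with a difference of 1.67 (SE 0.289, limma adjusted p = 0.116). Over the 12 alternatives the adjusted p ran from 0.0156 to 1 for DMR_14362, which passed with voom and with the kidneys scaled to the same sum. For DMR_02219 it ran from 0.0139 to 0.819, passing with voom alone.

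Lower in males was DMR_14266, at 25.8 and 37.5 RPKM in the breeding and non-breeding male kidneys and at 93.5 and 104 in the female ones. The 2 female kidneys were close to each other and both well above the males. Its log2 difference of -1.63 (SE 0.235) had the lowest limma adjusted p of any member for sex, 0.0801, with 0.00645 to 0.847 over the alternatives, passing with voom and with the kidneys scaled to the same sum. Outside kidney it was highest in testis, at 3.06 and 2.92 RPKM, above the ovaries at 1.71 and 1.92. DMR_07145 had 31.4 RPKM in the breeding male and 15.8 in the non-breeding male kidney, and its female kidneys had 42.5 (breeding) and 120. The gap was wide in the non-breeding and narrow in the breeding kidneys, and the fitted difference was -1.64 (SE 0.509, limma adjusted p = 0.267). Its lowest kidney value rested on 88 reads.

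Some members moved in opposite directions with breeding in the 2 sexes. By 2-fold or more, 4 members had their breeding male kidney below the non-breeding male and their breeding female kidney above the non-breeding female (1.79%, background 0.095%). The reverse was seen in no member (0 of 223, background 0.0317%). In the order breeding male, breeding female, non-breeding male, non-breeding female, the most abundant of the 4 stood at 214, 1358, 1067 and 599 RPKM. The next stood at 49.3, 196, 368 and 30.0. The other two stood at 25.6, 154, 75.8 and 11.5, and at 18.2, 34.7, 39.5 and 16.8. In all 4 the breeding female and the non-breeding male kidneys were the higher pair and the remaining 2 kidneys the lower pair. With 1 library per class the interaction of sex and status leaves no residual degree of freedom, and this difference was not tested.

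Outside kidney the clearest difference by status was in the ovary, where the members are rare. They summed to 823 RPKM (0.142% of all RPKM) in the breeding ovary and to 505 (0.0904%) in the other. A few members weighed heavily in these sums, among them genes at 110.9 against 73.3, 89.2 against 20.7 and 72.1 against 21.5 RPKM. At 1 RPKM or more were 99 members in the breeding library and 73 in the other, 68 of them in both. The same count was not taken over all genes. Of the 223, 141 were higher, 64 lower and 18 equal in the breeding ovary. Of all 21082 genes, 9806 were higher and 8430 lower there. Over all 223 members the median log2 difference, breeding minus non-breeding, was 0.14, against 0 over all 21082 genes. By 2-fold or more, 29 of the 223 were higher (13%, background 4.25%) and 1 was lower (0.448%, background 1.28%). At a mean of 1 RPKM or more over the pair stood 91 members, with a median of 0.47, against 0.01 over the 13659 genes at that level. Some of the 91 reached this level only through the breeding ovary, so their median is given as a description and supports nothing. Each ovary group is 1 library, so there is no replicate check and no test. The rule itself had removed 2 genes that were high in the breeding female liver and ovary. Those stood at 528.7 and 169.2 RPKM on average in kidney, at 34.0 and 18.7 in the breeding female liver, and at 124 against 6.12 and 1.02 against 0 in the ovaries.

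The shift was not limited to kidney-enriched genes. Liver-enriched (295) and brain-enriched genes (750) were chosen by the same rule for their own tissue, with the same exclusion. Over all of them the median in the ovary pair was 0.08 for the liver set and 0.10 for the brain set. By 2-fold or more, 13.2% of the liver set and 7.6% of the brain set were higher in the breeding ovary, so the kidney set, at 13%, was close to the liver set in this share. Whether the kidney-enriched genes differ from these was not tested. Across the 91 members the kidney mean and the ovary difference had a Spearman's rho of -0.08. Some of the 91 were included only through their level in the breeding ovary, so this value is a description and no conclusion is drawn from it.

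DMR_03821 had the largest rise in the breeding ovary, with 7.41 RPKM (99 reads) there against 0.29 (3 reads) in the non-breeding ovary. In kidney it stood at 33.2 to 69.5 RPKM, with the status groups overlapping. In liver it stood at 3.25 and 4.70 RPKM in the breeding and at 5.81 and 5.86 in the non-breeding libraries, so the order there was the reverse of that in ovary. DMR_14000 stood at 6.98 RPKM (431 reads) against 0.43 (20 reads), and at 132 to 191 in the kidneys. On the lower side DMR_07423, the gene that was lower in both breeding kidneys, stood at 0.66 RPKM (7 reads) in the ovary of the breeder and 6.05 (49 reads) in that of the non-breeder. It was the one member 2-fold or more lower there. DMR_18668 followed with 7.49 against 14.8 RPKM, and stood at 86.1 to 137 in the kidneys. In the breeding female liver it stood at 24.1 RPKM (455 reads), against 0.98 to 5.47 in the other livers. The order in the female livers was thus the reverse of that in ovary.

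**Figure D5:**
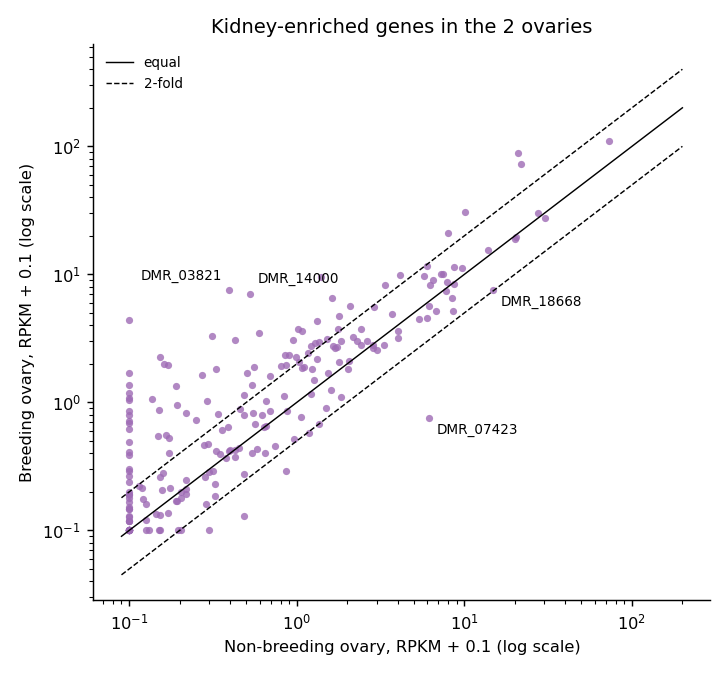
Levels of the 223 kidney-enriched genes in the breeding (vertical axis) and the non-breeding ovary (horizontal axis), as RPKM + 0.1 on log scales, with lines at equal levels and at 2-fold. More points lie above the line of equality (141) than below it (64), and DMR_07423 lies far below. Of all 21082 genes, which are not drawn, 9806 were higher and 8430 lower in the breeding ovary.

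In the other tissues the members' median difference by status was smaller than in ovary. In the female livers the 223 members had a median log2 difference of 0.06 (breeding minus non-breeding), against 0 over all 21082 genes. Of the members 16 were 2-fold or more higher (7.17%, background 5.36%) and 6 lower (2.69%, background 2.32%). At a mean of 1 RPKM or more over the female liver pair, 81 members had a median of 0.21, against -0.01 over 13013 genes. As in ovary, that level can be reached through 1 library alone, so this median is only a description. Against the mean of the other 3 livers, the breeding female liver had a median of 0.00 over the members at a mean of 1 RPKM or more in liver. The members' median was 0 in the male livers and in the male brains, as it was over all genes there. It was 0.04 in the female brains, against 0 over all genes, and -0.01 in the testes, against -0.03. In the male brains 9 of the 223 were 2-fold or more higher and 2 lower, against 350 and 253 of the 21082 genes. That pair sets frontal brain (breeding) against brain. Higher and lower by 2-fold were 6 and 6 members in the male livers (359 and 329 of all genes). In the female brains they were 4 and 2 (231 and 119), and in the testes 1 and 1 (98 and 408).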

How the data were processed

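The authors deposited 1 table of RPKM values per gene in each library, and it was used as deposited. Reads were aligned with TopHat 1.3.1, per the submitters' processing notes. Genome build, annotation and read counter: not given in the sources used here. The members, lists and tests were chosen with earlier results of these data known. Whole reads and coding lengths were recovered from the RPKM for 100% of the 21082 genes (values rebuilt within 1e-09 of their size), and the step was tested on simulated data. Lengths were assumed to be whole multiples of 3 bases, and so were the simulated ones. The scale of the lengths and of the divisors rests on this assumption, which the simulation did not test.

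Values were analysed as log2(RPKM + 1), a scale that understates changes of low genes. Kidney was fitted alone (4 libraries, status and sex) with limma 3.58.1 in R 4.3.3, using eBayes with a mean-variance trend and Benjamini-Hochberg adjustment over 13618 genes. Pairs of single libraries were compared without a test. Depth is given by the recovered reads. Alternatives were other scalings, pseudocounts, filters and thresholds, voom on recovered reads, a fit with liver and brain, and each library left out. Named genes are the 2 members highest in kidney, the 2 largest changes per direction among members without overlap between the status or sex groups, and the 2 extreme ovary ratios per direction at 1 RPKM or more in at least 1 ovary. The genes described without an identifier were chosen after their values were seen. The labels give no replicate numbers that pair libraries.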

Additional observations from a re-analysis of the deposited data

Results flagged for a closer look

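In kidney, 4 enriched genes were 2-fold or more lower in the breeding male and 2-fold or more higher in the breeding female than in the non-breeding library of the same sex. These genes are counted for that pattern, and each sex gives a single pair of libraries. Their log2 differences, breeding minus non-breeding on RPKM + 1, were between -2.88 and -1.08 in the male pair and between 1.01 and 3.63 in the female pair. The difference between the sexes was not tested, since each class of sex and status is 1 library.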

How the results depend on the processing

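The number of kidney-enriched genes was 143 with a ratio of 16 in place of 8. It stayed within 1.5 times of 223 under the other 22 alternatives (202 to 322), including each library left out (214 to 232). Members called for status went from 0 to 1 with the kidneys scaled to the same sum, 1 with voom, and 0 to 1 with each kidney left out. The gene called was DMR_11412 in each case. Members called for sex went from 0 to 2 with the same sum and 5 with voom. Over all genes tested, the same sum and voom called 2 and 12 for status and 59 and 109 for sex. With each kidney left out the calls were 0 to 17 for status and 0 to 6 for sex. The cause was not tested. The median status difference of the members ran from -0.044 to 0.208 over the kidneys left out, without a stable sign. The median sex difference ran from -0.27 to -0.12 over the kidneys left out and stayed below 0 under each alternative run. The median ovary difference of the 91 members at a mean of 1 RPKM or more, 0.47 as deposited, was 0.31 with quantile normalization and 0.64 with a pseudocount of 0.1. The median of the breeding female liver against the other livers was 0.15 with the same sum and -0.12 with quantile normalization. Fits without a kidney held only the tested factor. The restriction to 20 RPKM in kidney was chosen after seeing the data, and it moved the ratio of the median spreads from 1.48 to 1.41. No paired analysis was possible because the libraries carry no shared replicate numbers. Precision is limited by 1 library per group, and in the other tissues by few reads.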

Other observations

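Some kidney-enriched genes carried consecutive identifiers. Of the 219 members whose following identifier is in the table, 7.31% were followed by another member, where 1.06% of all genes are members. The 20216 consecutive pairs in the table held 16 such pairs, with 30 members in them. The longest run had 4 members, with kidney means of 813, 325, 171 and 35.2 RPKM. No level of the run outside kidney was above 31.1 as a tissue mean, reached in testis by the member at 325. The sources used here do not state what the order of the identifiers stands for, and no test was run.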
